A study of Rattus norvegicus with 12 samples.

Results

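The genes described here are extracellular proteases and protease inhibitors: the matrix metalloproteases, the ADAM and ADAMTS proteases, the plasminogen system, the serine protease HtrA1, and inhibitors. Most of the inhibitors block metalloproteases or serine proteases, but the products of Lxn and Cst3 block carboxypeptidases and cysteine proteases. Members were taken by name from a list of 42 genes, drawn up with earlier results of these data known, and matched to the gene symbols that come with the array. Of the 42 genes, 40 were measured, on 59 spots, among 14871 genes in the whole table. The other two, Adam8 and Timp4, were not analysed here. The 40 comprised 29 genes for proteases, zymogens and a protease receptor and 11 genes for inhibitors.

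Wild-type entorhino-hippocampal slices, labelled as rat, were kept as organotypic co-cultures for 15 days. A knife cut along the interface then severed the axons that run from the entorhinal cortex into the hippocampus. RNA of axotomized co-cultures was compared with RNA of non-axotomized co-cultures kept for the same time, at 1, 3 and 7 days after the cut. The 12 arrays hold 2 biological replicates for each of the 3 days, every one on a pair of arrays whose dyes were swapped. No strain is given, nor whether a replicate is a culture, an animal or a pool, so p-values measure the spread between these samples. The organism field of the labels names Rattus norvegicus while the treatment protocol speaks of mice, and the sources used here do not settle this. A slice in culture has no blood supply and no immune cells arriving from the circulation, and both groups carry the injury of slicing itself.

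Matrix metalloproteases are zinc enzymes that are made as inactive precursors and cut collagens, proteoglycans and signalling proteins once activated, in part by plasmin. Plasmin is itself released from plasminogen by urokinase and tissue plasminogen activator. TIMPs block the metalloproteases, and serpins and Kunitz-type inhibitors block the serine proteases. In the brain these enzymes take part in the remodelling of matrix around axons and synapses, and several of their genes are known to respond to injury.

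Values are given on the log2 scale, with the axotomized culture over its intact control. The sources do not state this direction. It is the likely one, since the titles put the lesioned sample first, and every sign turns if the table runs the other way. A replicate's value is the mean of its dye-swapped arrays, errors are SDs over both replicates (n = 2), and a call means an adjusted p under 0.05 in limma, with Benjamini-Hochberg adjustment over all 14871 genes. Each ratio concerns whole cultures, so fewer cells of a type and less RNA per cell cannot be told apart. The table holds no signal levels, so whether a gene was above background is unknown. For the same reason, the cell types of the cultures could not be checked against marker levels.

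Few of these genes passed the test, and the 3 that did encode protease inhibitors, that of Lxn directed at carboxypeptidases. At day 1 Tfpi2 was lower and Lxn was higher, and at day 3 Serpine2 was higher. No protease gene passed on any day in this fit, though some did in alternative ones, Adamts1 at day 1 among them (adjusted p = 0.0268 with quantile normalization of all spots). At day 1 the calls were 2 of 40 genes (5%), 1 higher and 1 lower, where 0.592% of all genes passed (0.37% higher and 0.222% lower). At day 3 they were 1 of 40 (2.5%), against 1.03% of all genes (0.592% higher and 0.437% lower). At day 7 they were 0 of 40, and 0% of all genes passed. With an unadjusted p under 0.05, 6, 10 and 7 of the 40 genes stood out at days 1, 3 and 7 (15, 25 and 17.5%), and the shares over all genes were 13.2, 14.4 and 9.37%. Tfpi2 and Lxn passed in no fit that left out a replicate, and Serpine2 passed only where the replicate left out was one of day 7. Leaving out 1 replicate at a time gave an adjusted p of 0.0518 to 0.354 for Tfpi2, 0.0788 to 0.395 for Lxn and 0.0464 to 0.149 for Serpine2.

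**Figure D1:**
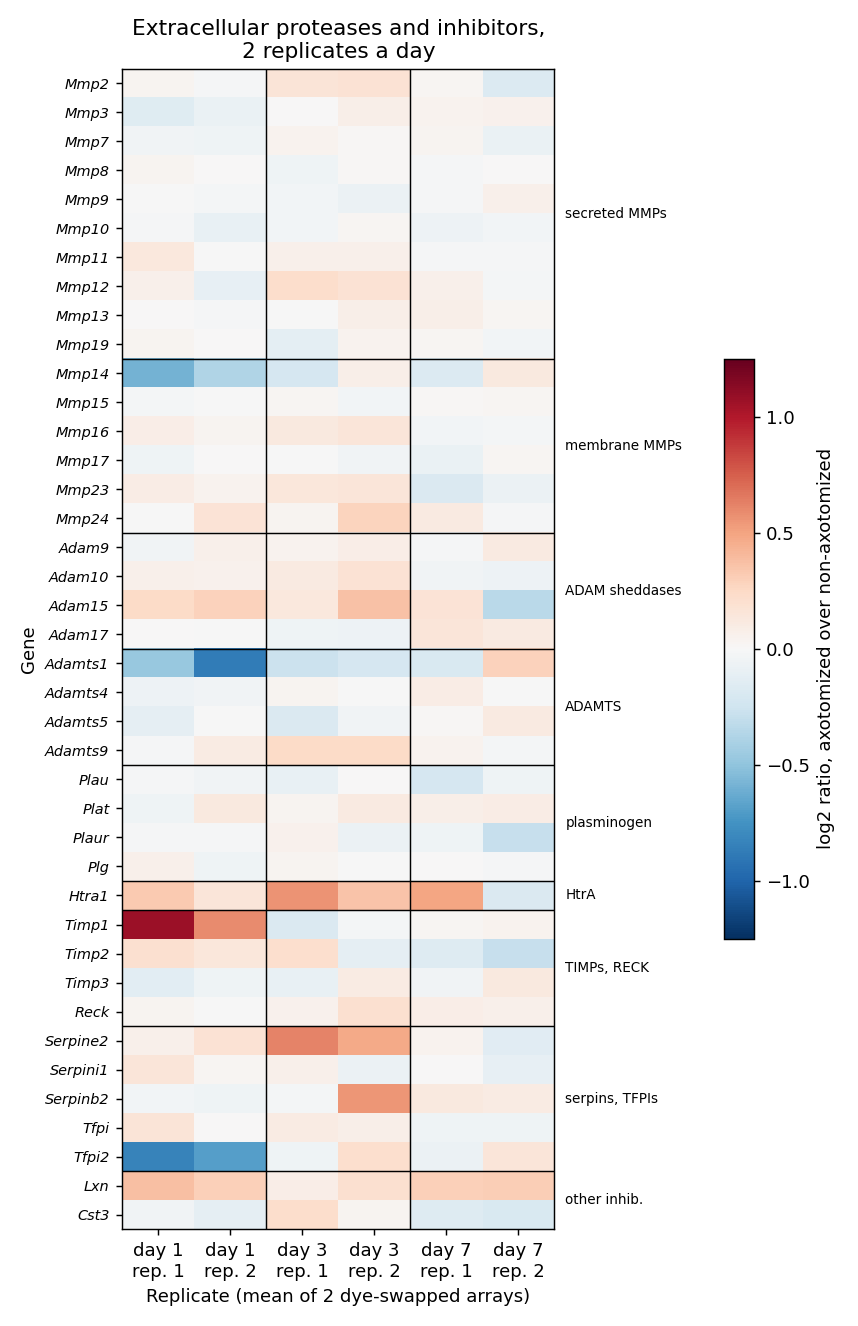
Heat map of log2 ratios (axotomized over intact) for the 40 measured genes (rows, grouped by role) in the 6 replicates (columns, each the mean of 2 dye-swapped arrays). Most cells are pale. Timp1 (1.07 and 0.59), Tfpi2 (-0.84 and -0.69), Adamts1 and Mmp14 stand out at day 1, and Serpine2 (0.62 and 0.47) at day 3.

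Tfpi2 encodes a secreted Kunitz-type inhibitor of trypsin-like serine proteases, plasmin among them. At day 1 its ratio was -0.89 and -0.79 on the arrays of replicate 1 and -0.56 and -0.82 on those of replicate 2, in each pair with the axotomized RNA in Cy5 first and in Cy3 second. All 4 arrays were low. The mean of -0.76 ± 0.11 (limma, adjusted p = 0.0339) is 1.70-fold lower in axotomized cultures, and 22 of 14871 genes had a ratio this low or lower. At day 3 the replicates had -0.056 and 0.21 and at day 7 -0.077 and 0.15, so that both days straddled 0. The ratio at day 3 exceeded that at day 1 by 0.84 (95% interval 0.54 to 1.13, adjusted p = 0.143), and that at day 7 exceeded it by 0.80 (0.51 to 1.09, adjusted p = 0.0895). Neither difference passed. The gene has 1 spot on the array, and in the fit of single spots it did not pass (adjusted p = 0.12).

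The promoter window of Tfpi2 is shown because this gene had the largest called change of the group. It runs from 250 bases before the start site to 50 bases after it (chr4:32941227-32941526, minus strand, RefSeq, build GRCr8). Capitals mark TGANTCA, the core of the binding site of the transcription factor AP-1.
Tfpi2: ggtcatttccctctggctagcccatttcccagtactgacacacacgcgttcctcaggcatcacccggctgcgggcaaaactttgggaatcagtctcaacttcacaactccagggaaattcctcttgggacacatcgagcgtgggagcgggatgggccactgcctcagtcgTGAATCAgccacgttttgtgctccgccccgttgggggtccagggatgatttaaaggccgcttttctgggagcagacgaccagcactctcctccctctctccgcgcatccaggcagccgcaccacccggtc

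Lxn encodes latexin, an inhibitor of carboxypeptidases. At day 1 its ratio was 0.53 and 0.23 on the arrays of replicate 1 and 0.38 and 0.22 on those of replicate 2, and the replicate values were 0.38 and 0.30. All were high, more so with the axotomized RNA in Cy5. The mean was 0.34 ± 0.057 (limma, adjusted p = 0.0468), a 1.26-fold increase. At day 3 the replicates had 0.082 and 0.20, and at day 7 they had 0.30 and 0.31, which gave 0.31 ± 0.0076 (adjusted p = 0.238). Lxn was the only gene of the 40 with 1 sign in all 6 replicates (2.5%, against 7.05% of all genes), and it lay above 0 on all 12 arrays. Its average over the 3 days was 0.26 (95% interval 0.20 to 0.32, limma, adjusted p = 0.0457), the only average of the 40 that passed, where 0.316% of all genes did.

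The 2 spots of Lxn did not carry this equally. They had 0.25 and 0.42 at day 1 and 0.053 and 0.23 at day 3, but 0.033 and 0.58 at day 7. The value at day 7 therefore rests on 1 spot, and neither spot alone passed at day 1 (adjusted p = 0.239 and 0.111).

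Serpine2 encodes protease nexin, a serpin that blocks thrombin and both plasminogen activators and that glia are known to secrete. At day 3 its ratio was 0.80 and 0.44 on the arrays of replicate 1 and 0.50 and 0.44 on those of replicate 2. All 4 arrays were high, while those of day 1 ran from 0.032 to 0.23 and those of day 7 from -0.24 to 0.14. The mean of 0.55 ± 0.11 (limma, adjusted p = 0.0372) is 1.46-fold, and 54 of 14871 genes had a ratio this high or higher. Both spots of the gene were above 0 in both replicates at day 3, with means of 0.70 and 0.39 (adjusted p = 0.0644 and 0.111 in the fit of single spots). From day 1 to day 3 the ratio differed by 0.42 (95% interval 0.20 to 0.65, limma, adjusted p = 0.244). From day 3 to day 7 it differed by -0.59 (95% interval -0.82 to -0.37, adjusted p = 0.0783). Neither difference passed.

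Markers of glia moved on the same day. At day 3 the 10 astrocyte genes had a mean of 0.34 and 0.26 in the replicates, with 7 above 0 in both and 3 called higher. The 9 oligodendrocyte genes had 0.40 and 0.36, with 8 above 0 in both and 2 called higher. The 12 microglia and macrophage genes had 0.30 and 0.22, with all 12 above 0 in both and none called. Over all genes on that day, 4771 of 14871 were above 0 in both replicates and 0.592% were called higher. The part of these cell types in the Serpine2 value was not tested.

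The promoter windows of Lxn (chr2:154043424-154043723, minus strand) and Serpine2 (chr9:88637153-88637452, minus strand) are shown beside that of Tfpi2 because these are the other genes with a call. Neither holds TGANTCA in these 300 bases. Their GC content was 64 and 77%, and that of the Tfpi2 window 59.3%, where the median over all promoters of the table was 51.7%.
Lxn: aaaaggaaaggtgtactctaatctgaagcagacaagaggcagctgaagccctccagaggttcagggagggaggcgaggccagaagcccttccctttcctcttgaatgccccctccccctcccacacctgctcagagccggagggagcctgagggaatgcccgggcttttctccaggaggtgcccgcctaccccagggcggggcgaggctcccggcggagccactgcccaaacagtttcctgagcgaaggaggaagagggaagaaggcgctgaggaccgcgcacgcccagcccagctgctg
Serpine2: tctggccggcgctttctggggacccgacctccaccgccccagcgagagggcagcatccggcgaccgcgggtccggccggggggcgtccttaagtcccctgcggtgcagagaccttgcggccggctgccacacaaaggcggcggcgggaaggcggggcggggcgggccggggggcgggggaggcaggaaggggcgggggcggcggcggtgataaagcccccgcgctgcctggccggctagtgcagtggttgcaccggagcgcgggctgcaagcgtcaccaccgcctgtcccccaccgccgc

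Timp1, the inducible secreted inhibitor of matrix metalloproteases, had the largest ratio of the group and did not pass. At day 1 it was 1.20 and 0.94 on the arrays of replicate 1 and 0.55 and 0.64 on those of replicate 2. All 4 arrays were high, but the replicates stood apart, at 1.07 and 0.59. The mean of 0.83 ± 0.34 was 1.78-fold (limma, adjusted p = 0.0521), with a 95% interval of 0.56 to 1.10, and 8 of 14871 genes had a ratio this high or higher. Both spots were high, at 0.64 and 1.02. At day 3 the replicates had -0.18 and -0.028 and at day 7 0.025 and 0.047. The ratio at day 3 differed from that at day 1 by -0.94 (95% interval -1.32 to -0.55, adjusted p = 0.169).

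The other inhibitors of metalloproteases stayed closer to 0. Timp2, which also helps to activate Mmp2, had 0.20 and 0.14 at day 1 and -0.16 and -0.28 at day 7, where its mean was -0.22 ± 0.091 (limma, adjusted p = 0.498). At day 7 its arrays with axotomized RNA in Cy5 had -0.33 and -0.40 and those in Cy3 0.013 and -0.17, so the Cy5 arrays carried most of it. Timp3, the TIMP that binds to matrix, ranged from -0.13 to 0.12 over the 6 replicates. Reck, a membrane-anchored inhibitor, ranged from -0.0095 to 0.20.

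Among the serine protease inhibitors, Serpini1, the neuroserpin of neurons that blocks tissue plasminogen activator, ranged from -0.11 to 0.15. Tfpi, the inhibitor of the tissue factor pathway, ranged from -0.050 to 0.16. Serpinb2, an inhibitor of urokinase, had -0.026 and 0.55 at day 3. Its replicates thus disagreed, the mean was 0.26 ± 0.41 (limma, adjusted p = 0.425), and its other replicates lay between -0.053 and 0.12.

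**Figure D2:**
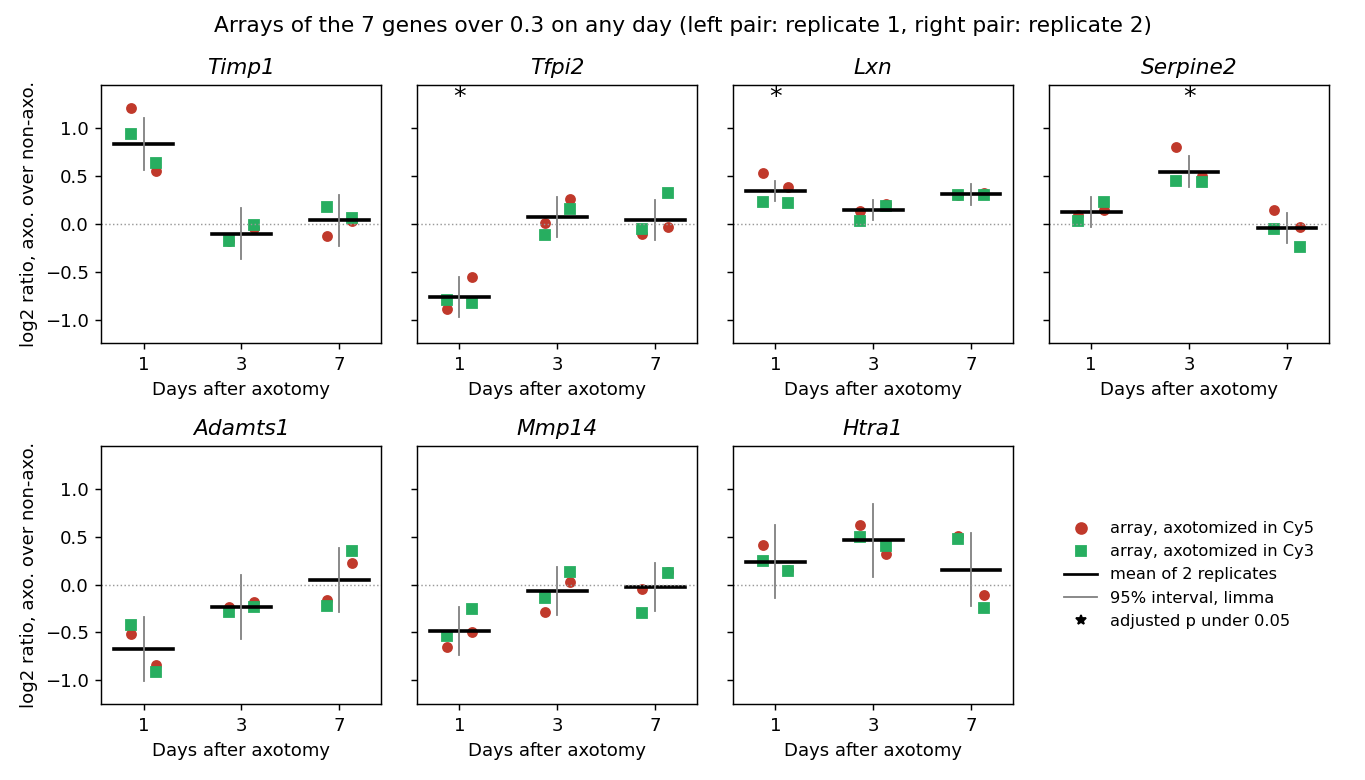
Log2 ratios on every array for the 7 genes whose mean passed 0.3 in size on any day, by days after axotomy, with red circles for axotomized RNA in Cy5, green squares for Cy3, black bars for the mean of 2 replicates, grey lines for limma's 95% interval and stars for adjusted p under 0.05. At day 1 Timp1 and Tfpi2 lie on opposite sides of 0 and return near 0 later, Serpine2 peaks at day 3, and Lxn stays above 0 on all arrays.

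Of the 40 genes, 7 had a mean over 0.3 in size on any day (17.5%, against 6.39% of all genes). They were Timp1, Tfpi2, Lxn and Serpine2 among the inhibitors and Adamts1, Mmp14 and Htra1 among the proteases.

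Proteases were led at day 1 by Adamts1, a secreted protease that cuts aggregating proteoglycans. Its ratio was -0.52 and -0.42 on the arrays of replicate 1 and -0.84 and -0.91 on those of replicate 2. All were low, and the replicates differed. The mean was -0.67 ± 0.29 (limma, adjusted p = 0.129), 1.60-fold lower, with a 95% interval of -1.01 to -0.34. At day 3 all 4 arrays were still below 0, at -0.18 to -0.29 with a mean of -0.24 ± 0.038 (adjusted p = 0.52), and at day 7 the replicates were -0.19 and 0.29.

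Mmp14, the membrane-type metalloprotease that activates the Mmp2 precursor, was low on all 4 arrays at day 1. They had -0.66 and -0.53 in replicate 1 and -0.50 and -0.25 in replicate 2. The mean of -0.49 ± 0.15 (limma, adjusted p = 0.148) is 1.40-fold lower, with a 95% interval of -0.74 to -0.23. At days 3 and 7 its replicates straddled 0, with means of -0.069 and -0.024.

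Htra1, a secreted serine protease that cuts matrix proteins, had 0.33 and 0.15 at day 1 and 0.56 and 0.36 at day 3. All 8 arrays of these days were above 0. The mean at day 3 was 0.46 ± 0.14 (limma, adjusted p = 0.26), a 1.38-fold difference with a wide 95% interval of 0.081 to 0.84. At day 7 the replicates went apart, at 0.49 and -0.18.

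The secreted matrix metalloproteases showed little difference between axotomized and intact cultures. Over the 10 genes the means at day 1 ran from -0.12 (Mmp3) to 0.062 (Mmp11), and the medians were -0.0091, 0.031 and -0.0055 at days 1, 3 and 7, where the medians over all genes were 0.0098, 0.0063 and 0.0033. Mmp12, the elastase of macrophages, was the highest at day 3, with 0.22 and 0.19 in the replicates, all 4 arrays above 0 and a mean of 0.20 ± 0.026 (limma, adjusted p = 0.148). Mmp2, a gelatinase, had 0.16 and 0.18 at day 3, also above 0 on all 4 arrays, with a mean of 0.17 ± 0.00875 (adjusted p = 0.221). Of its 3 spots 1 was at 0.42 and the other two at 0.069 and 0.022, so this mean rests on 1 spot.

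Mmp9, the other gelatinase, ranged from -0.073 to 0.060 over the 6 replicates. At day 1 its 95% interval ran from -0.099 to 0.076. The stromelysins Mmp3 and Mmp10, the collagenases Mmp8 and Mmp13, the matrilysin Mmp7 and Mmp11 and Mmp19 had replicate values between -0.155 and 0.133. Mmp3 had the lowest, with -0.155 and -0.087 at day 1 (mean -0.12 ± 0.048, limma, adjusted p = 0.277). For 15 of the 16 matrix metalloproteases at day 1, and for all 16 at days 3 and 7, the 95% interval lay within 0.5 of 0 in both directions, and Mmp14 was the exception. Such a ratio can come from a gene that is expressed alike in both cultures or from a spot with no signal above background, and the table cannot tell these apart.

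Of the membrane-bound metalloproteases other than Mmp14, Mmp24 had 0.036 and 0.28 at day 3 (mean 0.16 ± 0.17, limma, adjusted p = 0.432). Mmp16 and Mmp23 were above 0 in both replicates at day 3, with means of 0.13 and 0.14, and below 0 in both at day 7, with -0.027 and -0.13. At day 7 the sign of Mmp16 turned with the dye, at 0.104 and 0.109 in Cy5 and -0.164 and -0.156 in Cy3. Its Cy3 arrays at day 3 had -0.014 and 0.064. Mmp23 had 0.105 on the Cy3 array of replicate 2 at day 7. Mmp15 and Mmp17 stayed between -0.081 and 0.026 in all replicates.

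Of the ADAM genes, which encode membrane proteases that shed surface proteins, Adam15 was above 0 on all 4 arrays at day 1 (0.20 to 0.34) and at day 3 (0.087 to 0.41). Its means were 0.26 ± 0.038 (limma, adjusted p = 0.443) and 0.25 ± 0.17 (adjusted p = 0.434), and at day 7 its replicates were 0.17 and -0.34. Adam10, an alpha-secretase of the amyloid precursor, had 0.11 and 0.18 at day 3 (0.15 ± 0.048, adjusted p = 0.13) and -0.045 and -0.062 at day 7. Adam17, which releases tumour necrosis factor from the cell surface, had 0.15 and 0.12 at day 7 (mean 0.13, adjusted p = 0.341). Adam9 stayed between -0.040 and 0.11.

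Adamts9, a protease of the proteoglycans versican and aggrecan, had the smallest adjusted p of any protease at day 3. Its replicates were 0.24 and 0.24, all 4 arrays lay between 0.20 and 0.27, and the mean was 0.24 ± 0.0026 (limma, adjusted p = 0.0749). Its 2 spots did not match, with 0.042 and 0.44. Adamts4 and Adamts5, the aggrecanases, had means between -0.11 and 0.061 on the 3 days.

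In the plasminogen system no gene passed on any day. Over Plau (urokinase), Plat (tissue plasminogen activator), Plaur (the urokinase receptor) and Plg (plasminogen), the means ran from -0.031 to 0.032 at day 1 and from -0.041 to 0.074 at day 3. At day 7 the median size over these 4 genes was 0.107, against 0.041 over all genes. Plau had -0.21 and -0.057 on that day (mean -0.13 ± 0.11, limma, adjusted p = 0.507). Plaur had -0.050 and -0.29 (mean -0.17 ± 0.17, adjusted p = 0.514). For Plau 1 array with axotomized RNA in Cy5 had -0.51 and the other 3 ran from -0.080 to 0.096. Plaur had -0.20 and -0.77 with axotomized RNA in Cy5 and 0.096 and 0.19 with it in Cy3, so that its sign changed with the dye.

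**Figure D3:**
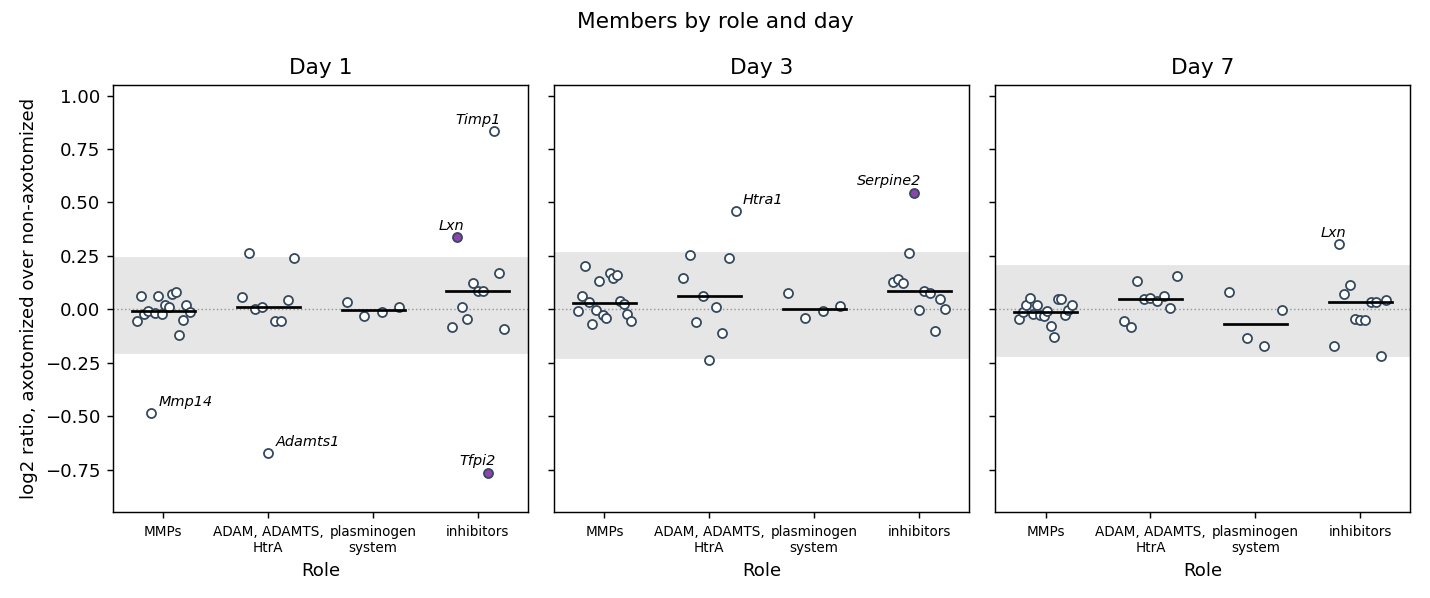
Mean log2 ratio of each of the 40 genes by role at days 1, 3 and 7, with filled points for adjusted p under 0.05, black lines for the median of a role and a grey band for the central 95% of all 14871 genes. At day 1 there are 6 genes outside the band, at day 3 there are 3 and at day 7 there are 2, and the filled points are inhibitors.

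Set side by side, the 16 matrix metalloproteases had a median of -0.0091 at day 1, the 4 plasminogen genes -0.0023 and the 11 inhibitors 0.084. At day 3 the medians were 0.031, 0.0033 and 0.085, and at day 7 -0.010, -0.067 and 0.035. The roles were not compared by a test. At day 1 the inhibitors ran from -0.76 (Tfpi2) to 0.83 (Timp1) and the 16 metalloproteases from -0.49 (Mmp14) to 0.083. Without Tfpi2, Timp1 and Mmp14 these ranges were -0.091 to 0.34 and -0.12 to 0.083. All proteases, activators and the receptor together ran from -0.67 (Adamts1) to 0.26. Over all 40 genes the median size of a ratio was 0.055, 0.072 and 0.049 at days 1, 3 and 7, against 0.046, 0.046 and 0.041 over all genes.

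At day 3, in 19 of the 40 genes both replicates were above 0 and in 6 both were below, against 13 and 15 at day 1 and 10 and 10 at day 7. Over all 14871 genes the numbers above and below were 5276 and 3862 at day 1, 4771 and 3854 at day 3 and 4707 and 4084 at day 7. With 1 sign on all 4 arrays there were 10 genes at day 1 (25%, against 18.7% of all genes), 13 at day 3 (32.5%, against 23%) and 5 at day 7 (12.5%, against 17.4%). Of these, 7, 10 and 3 were above 0, where 11.1, 12.6 and 9.24% of all genes were, and 3, 3 and 2 were below 0, where 7.56, 10.4 and 8.18% were. Across the 40 genes, Pearson's r of replicate 1 with replicate 2 was 0.87, 0.55 and 0.012 at days 1, 3 and 7, where it was 0.48, 0.40 and 0.29 over all genes. At day 7 the replicates of these genes thus had almost no linear relation. Between days, r of the 40 means was 0.28 for days 1 and 3, 0.056 for days 3 and 7 and 0.047 for days 1 and 7, where it was 0.30, -0.11 and -0.20 over all genes. These are descriptions over genes of the same arrays, which are not independent.

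No difference between days passed for any of the 40 genes in limma's test. Without adjustment, 9 had a p under 0.05 from day 1 to day 3 (8.85% of all genes did, and 0% passed adjusted), 10 from day 3 to day 7 (13%, and 0.356% passed adjusted) and 8 from day 1 to day 7 (12.9%, and 0.121% passed adjusted). For Tfpi2, Timp1 and Serpine2 the ratios were near 0 on the other days, but the tests of the differences did not pass.

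**Figure D4:**
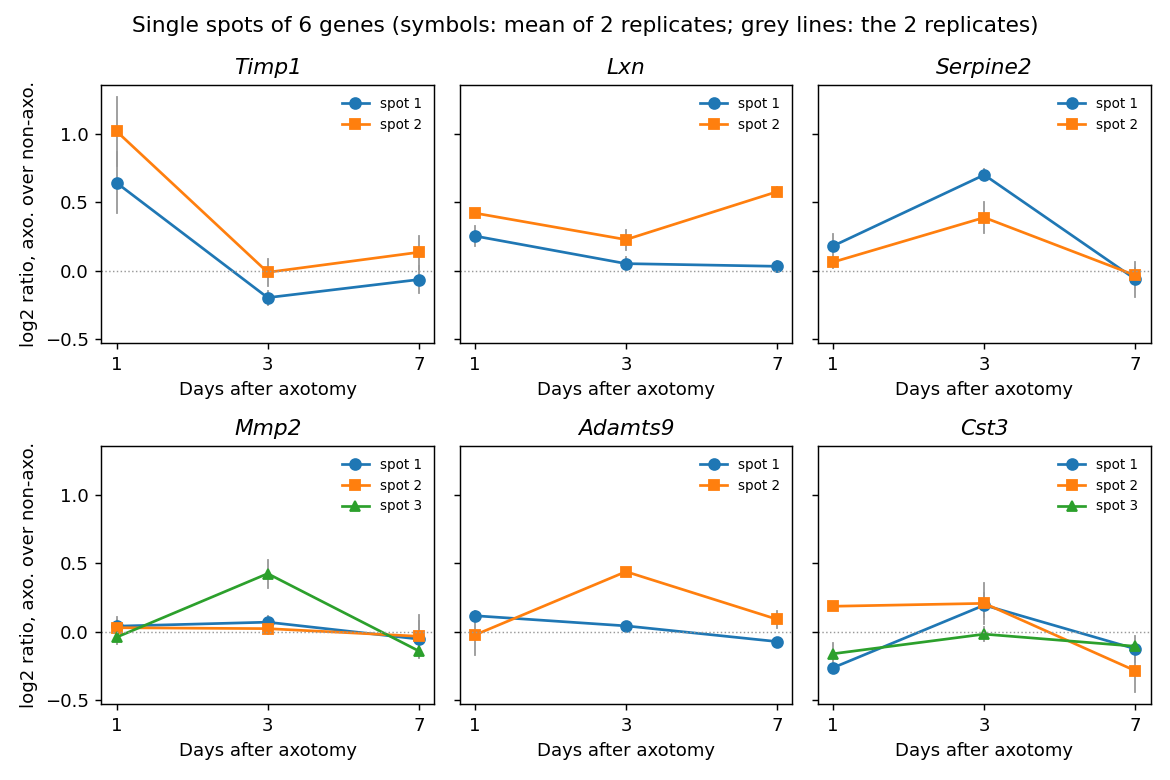
Log2 ratios of the single spots of 6 genes by days after axotomy, with symbols for the mean of 2 replicates and grey lines spanning the replicates. Both spots of Timp1 at day 1 and both of Serpine2 at day 3 lie above 0, while the day 7 value of Lxn and the day 3 values of Mmp2 and Adamts9 each come from 1 spot (0.58, 0.42 and 0.44).

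Of the 40 genes, 15 have several spots, and in 6 of them the spots differed by over 0.3 on at least 1 day. The plot of single spots shows these 6. Cst3, the cystatin C gene whose product blocks cysteine proteases, is one of them, with its 3 spots at -0.26, 0.19 and -0.16 at day 1.

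Cst3 is also the gene on which the dyes disagreed most. With axotomized RNA in Cy5 its replicates had -0.46 and -0.96 at day 1, -0.27 and -0.32 at day 3 and -0.86 and -0.95 at day 7. With axotomized RNA in Cy3 they had 0.36 and 0.73, 0.72 and 0.38, and 0.55 and 0.57. The signs were opposite in all 6 replicates, and averaging left -0.080, 0.13 and -0.17 ± 0.024 (limma, adjusted p = 0.425 at day 7). No direction can be given for Cst3. The part of a ratio that turned with the dyes (0.5 times the difference between the orientations) was over 0.3 for 1 gene of the 40 at day 1, 1 at day 3 and 2 at day 7, namely Cst3 and, at day 7, Plaur. Over all genes the shares were 1.78, 0.558 and 0.861%. This part was larger than the ratio itself in 50, 45 and 52.5% of the 40 genes, against 58.1, 52 and 56.9% of all genes. Between the dye-swapped arrays of a replicate, r over all genes ran from -0.080 (day 1, replicate 2) to 0.47 (day 3, replicate 2).

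**Figure D5:**
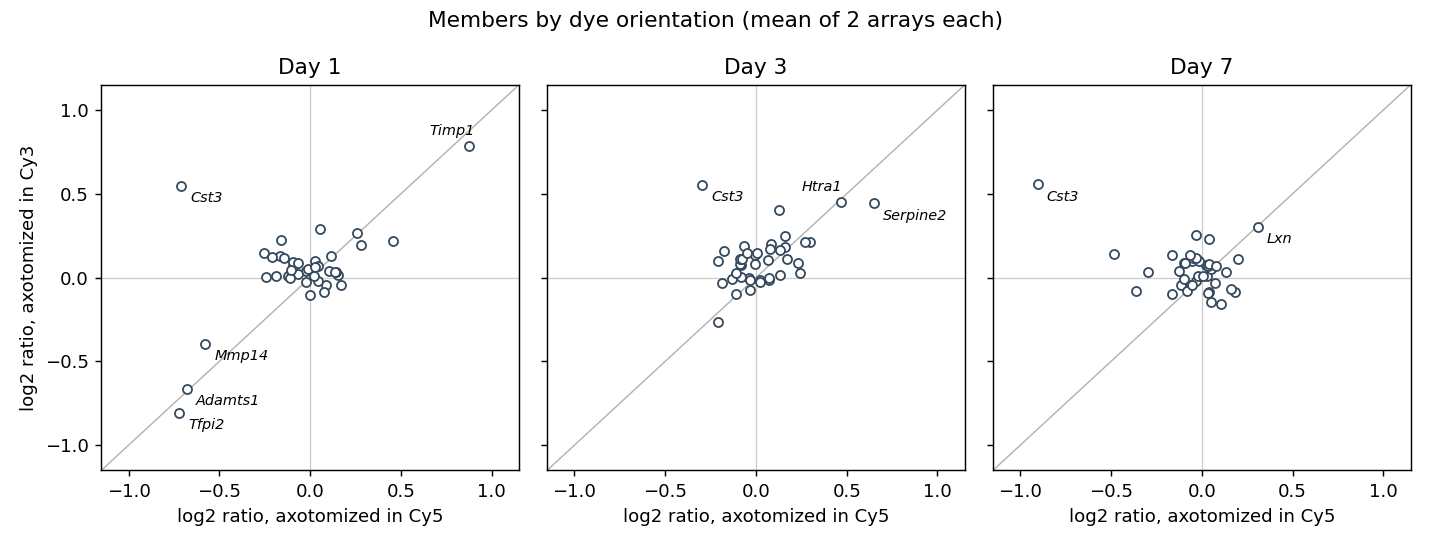
Mean log2 ratio of each of the 40 genes on the arrays with axotomized RNA in Cy5 (x axis) and in Cy3 (y axis), 2 arrays each, at days 1, 3 and 7, with the line of equality. Timp1, Tfpi2, Adamts1 and Mmp14 lie near the line at day 1, and Cst3 lies far from it on all days, at -0.90 and 0.56 on day 7.

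AP-1 is a transcription factor of stress and growth signals, and genes of several metalloproteases are known to carry its site close to their start. Of the 31 measured genes with a promoter window in the RefSeq table, 8 (25.8%) held TGANTCA within these 300 bases, and of all 33469 promoters 7.33% did. The motif reads the same on both strands. The stretches around it are shown to set the sequence beside the ratios, with the motif in capitals (build GRCr8).
Mmp3 (chr8:12925199-12925227, plus strand): ggaagcaattaTGAGTCAgtttgcgggtg
Mmp7 (chr8:13132952-13132980, plus strand): aagcatgagaaTGAGTCAccgattcccac
Mmp10 (chr8:12974635-12974663, plus strand): tagcacccacaTGAGTCAtgcttagtgac
Mmp12 (chr8:12866554-12866582, plus strand): gacatcaacagTGAGTCAtattgaggatt
Mmp13 (chr8:12782752-12782780, plus strand): accccaagtggTGACTCAtcactattgct
Plaur (chr1:89181269-89181297, plus strand): aggatcccagcTGACTCActctttagcaa
Serpinb2 (chr13:24055821-24055849, plus strand): cctgtttaaaaTGATTCAgatttccagac
Tfpi2 (chr4:32941339-32941367, minus strand): tgcctcagtcgTGAATCAgccacgttttg

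The motif began 61 to 87 bases before the start site in 7 of these genes and 189 bases before it in Serpinb2. The metalloprotease genes among them lie close together on chromosome 8. At day 1 Tfpi2 had -0.76, while Mmp3, Mmp7, Mmp10, Mmp12, Mmp13, Plaur and Serpinb2 had mean ratios smaller in size, from -0.12 to -0.0068. The replicates of Mmp12 and Mmp13 straddled 0 on that day, and the sign of Mmp13, Plaur and Serpinb2 turned with the dye in both replicates. That of Mmp3 and Mmp10 turned with the dye in replicate 1 and that of Mmp7 in replicate 2. Only Tfpi2 was thus below 0 on all 4 arrays, as 7.56% of all genes were, and no shared direction can be given. At day 3 the means of the genes with the motif ran from -0.0091 (Plaur) to 0.26 (Serpinb2), with Tfpi2 at 0.075. A match is a description of the letters and not a site in use.

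Among 91 other genes of the protease system, 81 were measured, and 1 was called at day 1, 2 at day 3 and 0 at day 7 in limma's test, where 0.592, 1.03 and 0% of all genes were. With an unadjusted p under 0.05 there were 18, 18 and 14, and 13.2, 14.4 and 9.37% of all genes. Lcn2, a lipocalin gene whose human product binds the MMP9 protein, had -0.57 and -0.79 at day 1 (mean -0.68 ± 0.15, adjusted p = 0.0281). A2m, a broad protease trap, had 0.80 and 0.93 at day 3 (mean 0.86 ± 0.090, adjusted p = 0.0232). Wfdc1, a gene of the whey acidic protein family, several of whose members inhibit proteases, had 0.43 and 0.52 on that day (mean 0.48 ± 0.061, adjusted p = 0.0232). These 3 calls held with either day 7 replicate left out and were lost with any replicate of day 1 or day 3 left out (adjusted p = 0.0671 to 0.127). They also depended on the model and the normalization. With each day alone Lcn2, A2m and Wfdc1 did not pass (limma, adjusted p = 0.0737, 0.0889 and 0.121). Quantile normalization of all spots gave 0.141 for Lcn2 and 0.198 for A2m, while Wfdc1 passed. The replicate block gave 0.0512 for Lcn2, while A2m and Wfdc1 passed. The smallest p at day 7 were those of the lysosomal protease genes Ctsd (-0.30 and -0.35, mean -0.33 ± 0.031, adjusted p = 0.238) and Ctsb (-0.35 and -0.33, mean -0.34 ± 0.015, adjusted p = 0.265) and of Fap, a fibroblast surface protease (0.29 and 0.32, mean 0.30 ± 0.017, adjusted p = 0.245).

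Marker lists of other cell types were read beside the days on which members were called. At day 1 the means of the replicates were 0.17 and 0.23 for 12 microglia and macrophage genes, -0.0026 and 0.044 for 8 fibroblast and meninges genes, -0.055 and 0.076 for 7 endothelial genes, -0.18 and 0.088 for 11 neuronal genes and 0.038 and 0.32 for 7 choroid plexus and ependyma genes. They were -0.015 and 0.11 for the astrocyte genes and -0.074 and 0.0024 for the oligodendrocyte genes, and 0 genes were called in each of these lists. At day 3 the fibroblast and meninges genes had 0.12 and 0.21 with 7 of 8 above 0 in both replicates, and the choroid plexus and ependyma genes 0.20 and 0.77 with all 7 above 0 in both. The neuronal genes had -0.051 and 0.21 with 3 of 11 above 0 in both, and the endothelial genes 0.042 and 0.073 with 2 of 7. Over all genes, 4771 of 14871 were above 0 in both on that day. The part of these cell types in the values of Timp1, Tfpi2, Lxn or Serpine2 was not tested.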

How the data were processed

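Per the labels, RNA was hybridized to 2-colour Agilent oligonucleotide arrays. The authors deposited log ratios per spot, read here as log2. Limma is named in the submitters' processing notes with no version, while the log base, the normalization and any background correction are not given in the sources used here. Base 2 follows limma's convention. Column medians lay between -0.022 and 0.027.

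Whether the columns share 1 RNA direction was looked at on 733 spots whose ratio turned with the dyes by over 1. Of these, 731 have no listed gene, with a median of -4.58 with axotomized RNA in Cy5 and 3.92 in Cy3. Opposite medians follow from how these spots were chosen. Over spots with 1 symbol, r between replicates of different days was 0.42 to 0.67 for the part that turned with the dyes. For the part that stayed it was -0.30 to 0.34. The columns were taken to run in 1 RNA direction, and the check does not show which RNA is the numerator. Between arrays of the same orientation the lowest r over all spots was 0.80, and over genes -0.12.

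Spots with exactly 1 symbol (23535 of 44290) were averaged per gene, dye-swapped arrays were averaged, and limma 3.58.1 (R 4.3.3) was run on the 6 values. Each day's coefficient was tested two-sided against 0, on 3 residual and 2.72 prior degrees of freedom. Differences between days and the average came from the same fit. No signal intensity is in the table, so no dim spot was filtered and the number of arrays limits the precision. The test was checked on simulated data. Figures used Python 3.11.15 and matplotlib 3.10.9.

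Named in full were all called genes and the 2 largest ratios with 1 sign in both replicates per role. Of the other protease-system genes, those called were named, and where none was called the 3 with the smallest p. Members and lists were chosen with earlier results of these data known. Alternatives were a replicate block, other spot summaries and normalizations, arrays as a random block, single dye orientations, robust eBayes, each day alone and each replicate left out.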

Additional observations from a re-analysis of the deposited data

Results flagged for a closer look

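In 3 genes of the wider protease system the ratio differed between days in limma's test of the difference itself. A2m differed by -1.10 (SE 0.111, adjusted p = 0.0429) from day 3, where the replicates had 0.80 and 0.93, to day 7, where others had -0.39 and -0.083. Wfdc1 differed by -0.613 (SE 0.0556, adjusted p = 0.0412) between the same days, from 0.43 and 0.52 to -0.096 and -0.18. Ctsd differed by -0.621 (SE 0.0587, adjusted p = 0.0486) from day 1 to day 7, from 0.28 and 0.30 to -0.30 and -0.35. Its day 1 arrays had 0.072 and -0.25 with axotomized RNA in Cy5 but 0.50 and 0.86 in Cy3. These calls depended on the processing. With the replicate block the adjusted p was 0.0629 for A2m, 0.0629 for Wfdc1 and 0.062 for Ctsd. Leaving out 1 replicate at a time gave 0.0379 to 0.117 for A2m, which passed only without day 7 replicate 2, 0.0847 to 0.112 for Wfdc1 and 0.0778 to 0.235 for Ctsd. With 2 replicates a day, no single replicate could be tested as standing apart.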

How the results depend on the processing

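The counts of called members (2 at day 1, 1 at day 3, 0 at day 7, 1 in the average and 0 in each difference between days) depended on the processing, and the cause was not tested. With the 12 arrays in a random block they were 5, 6, 1 and 8, and 3 from day 1 to day 3, 5 from day 3 to day 7 and 4 from day 1 to day 7. Over all 14871 genes this fit called 720, 1064, 288 and 851, and 389, 917 and 868. The main fit called 88, 153, 0 and 47, and 0, 53 and 18 of them. With a dye term as well the counts of members were 5, 7, 1 and 7, and 3, 4 and 4. Those of all genes were then 594, 958, 194 and 695, and 290, 832 and 726. Both fits take dye-swapped arrays as separate values, with an estimated correlation within a pair of -0.175 without and 0.226 with the dye term. The calls of members in the main fit are all among those of these fits. The arrays are the same, so this is no independent check. With the replicate block the count was 2 at day 1 (Tfpi2, and Mmp14 at adjusted p = 0.0397 in place of Lxn at 0.0784), 0 at day 3, 0 in the average and 1 from day 1 to day 7. In the same order this fit called 53, 66, 0 and 11 of all genes. Over all genes, r of the replicate deviations was 0.26 (days 1 and 3), 0.014 (days 3 and 7) and -0.068 (days 1 and 7). These values do not settle whether the replicate numbers pair the days. Quantile normalization of all spots gave 0 at day 3, 1 at day 7, 2 in the average and 1 from day 1 to day 3 and from day 1 to day 7. Of all genes it called 75, 15, 114, 91 and 92 in the same order. It stretched Tfpi2 at day 1 to -1.70. Quantile normalization over spots with a gene, chosen after seeing the data, gave 1 at day 1 and 0 in the average, with Tfpi2 at -0.85. Day 1 had 1 with columns centred on the median or with robust eBayes, and 0 with each day alone or single spots. Day 3 had 0 with each day alone, single spots or Cy3 only, and the average had 0 with single spots. With Cy5 only, day 1 had 6 and the average 9, and with Cy3 only the average had 7. In the same order these fits called 654, 2761 and 2645 of all genes. Leaving out 1 replicate at a time gave 0 at day 1, 0 to 1 at day 3, 0 at day 7, in the average and in each difference. Each day alone gives no average or difference. The values of 3 genes turned: with Cy3 only, Cst3, Plau and Plaur at day 7 were 0.56, 0.030 and 0.14. The directions of the other named members held in all 18 alternatives, but many of these could not turn them. The replicate block, both random blocks, robust eBayes, each day alone and leaving out a replicate of another day keep the same value. Named members had 1 sign in both replicates of their day, so leaving out either could not turn them.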
